A study of Homo sapiens with 8 samples.

Results

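Peaks of poly(A) 3′-sequencing in 10 genes for long noncoding RNAs (lncRNAs) were examined: MALAT1, NEAT1, MEG3, KCNQ1OT1, NORAD, MIAT, GAS5, TUG1, OIP5-AS1 and DLEU2. A peak was taken when it overlapped the GENCODE span of one of these genes or the 2 kb after its 3′ end, which gave 109 peaks of the 153624 in the deposited list. The libraries came from Kelly cells, a human neuroblastoma line, and from Kelly E9R cells. The latter is a resistant derivative of Kelly, selected with the CDK12 inhibitor E9, in which the CDK12 cysteine that THZ531 binds is mutated. Both lines had received DMSO, the solvent, or 400 nM THZ531, which binds the kinases CDK12 and CDK13 covalently, for 6 h. Each of the 4 groups had 2 biological replicates, so that 8 libraries were pooled. The labels give this dose, whereas the methods of the study name a lower dose for these lines. The list was called once on the merged reads of all libraries and holds 0 columns per library. Therefore neither THZ531 and DMSO nor the lines could be set against each other. No value below has a replicate, the depth of each library is unknown, and the results describe transcript ends in cells of all 4 groups together.

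Most RNAs made by RNA polymerase II end at a polyadenylation site (PAS): a hexamer such as AATAAA is bound by the cleavage machinery, the RNA is cut shortly after it, and a poly(A) tail is added. MALAT1 and the long isoform of NEAT1 are known exceptions. RNase P cuts both just before a tRNA-like structure, and the new 3′ end is not polyadenylated but is protected by a triple helix of an A-rich tract in the RNA with upstream U-rich motifs. NEAT1 also has a short isoform that ends at an ordinary PAS inside the long one. The long isoform is the scaffold of paraspeckles, while MALAT1 resides in nuclear speckles. The library kit primes reverse transcription with oligo(dT), which can anneal to a poly(A) tail and also to A-rich sequence within a transcript. The 10 RNAs thus allow ends without a tail, ends at a PAS motif and internal A tracts to be set side by side.

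The processed ends were placed from the annotation, as the base before the tRNA-like small RNA that GENCODE lists in each gene. The sequences are from GRCh38, read 5′ to 3′ on the strand of the gene, with 100 bases before and 60 bases after the cut. Capitals mark the longest run of A in the last 40 bases before the cut. They show that MALAT1 holds a continuous A run there and NEAT1 a shorter one.
MALAT1 processed end, chr11:65506017-65506176, plus strand: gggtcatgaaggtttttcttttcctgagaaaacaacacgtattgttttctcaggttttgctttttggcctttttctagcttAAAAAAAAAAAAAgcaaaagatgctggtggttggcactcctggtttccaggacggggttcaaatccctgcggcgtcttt
Long NEAT1 processed end, chr11:65445441-65445600, plus strand: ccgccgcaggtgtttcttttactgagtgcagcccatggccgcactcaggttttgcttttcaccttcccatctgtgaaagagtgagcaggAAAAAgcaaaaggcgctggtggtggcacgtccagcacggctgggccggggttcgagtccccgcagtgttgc

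In MALAT1 the run was 13 A long and 17 of the last 20 bases before the cut were A. In NEAT1 the longest run was 5 A and 11 of the last 20 bases were A. In both, the tRNA-like RNA began at the next base, was 57 bp long in MALAT1 and 58 bp in NEAT1, and carried the B box, an internal promoter element of tRNA genes, as GGTTCAAATCC and GGTTCGAGTCC, respectively.

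Peaks with a PAS motif are shown next. The lines below give, for 7 of the other genes and for short NEAT1, the sequence around the peak with the highest −log10 q among those that had a PAS motif but were not followed by A-rich sequence, so that the motif and its surroundings can be read. The KCNQ1OT1 peak lies inside an exon, 8635 bp from the nearest end of a basic transcript. Capitals mark AATAAA or ATTAAA. Each line runs to 20 bases past the 3′ end of the peak, except that of TUG1, which stops at it.
Short NEAT1 end, chr11:65426493-65426552, plus strand: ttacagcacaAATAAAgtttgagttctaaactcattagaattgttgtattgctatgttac
MEG3, chr14:100860976-100861045, plus strand: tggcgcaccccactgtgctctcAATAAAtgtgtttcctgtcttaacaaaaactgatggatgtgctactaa
NORAD, chr20:36045592-36045661, minus strand: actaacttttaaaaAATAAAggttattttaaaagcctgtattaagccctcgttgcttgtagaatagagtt
MIAT, chr22:26676427-26676496, plus strand: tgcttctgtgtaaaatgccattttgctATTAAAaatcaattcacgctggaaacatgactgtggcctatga
GAS5, chr1:173864114-173864183, minus strand: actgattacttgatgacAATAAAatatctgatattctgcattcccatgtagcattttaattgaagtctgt
TUG1, chr22:30978820-30978849, plus strand: accAATAAAtacccttttttgcttaagtta
DLEU2, chr13:50043887-50043956, minus strand: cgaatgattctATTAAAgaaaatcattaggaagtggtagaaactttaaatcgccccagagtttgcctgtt
KCNQ1OT1, chr11:2675306-2675375, minus strand: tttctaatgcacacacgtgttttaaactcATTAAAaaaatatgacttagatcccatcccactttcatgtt

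The third kind is A-rich sequence inside the transcripts. The lines below show, for 5 genes, the peak followed by the longest A run, which is in capitals. Each starts with the last 20 bases of the peak.
NEAT1, chr11:65440832-65440874, plus strand: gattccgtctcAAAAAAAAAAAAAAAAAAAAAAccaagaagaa
MIAT, chr22:26670590-26670636, plus strand: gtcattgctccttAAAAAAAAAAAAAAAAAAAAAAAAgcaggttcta
KCNQ1OT1, chr11:2606883-2606937, minus strand: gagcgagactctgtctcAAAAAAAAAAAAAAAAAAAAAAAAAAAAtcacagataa
OIP5-AS1, chr15:41301955-41302009, plus strand: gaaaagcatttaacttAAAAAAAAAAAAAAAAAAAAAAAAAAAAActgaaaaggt
DLEU2, chr13:50065462-50065513, minus strand: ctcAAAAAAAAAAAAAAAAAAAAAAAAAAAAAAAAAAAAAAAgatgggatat

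Of the 109 peaks, DLEU2 held 41, KCNQ1OT1 19, OIP5-AS1 11, MALAT1 8, MIAT 7, GAS5 and TUG1 6 each, NEAT1 5, NORAD 4 and MEG3 2. GENCODE lists TUG1 as protein-coding and the other 9 as lncRNA genes. The peaks were assigned to an annotated end when they overlapped the range from 200 bp before to 600 bp after the end of a basic transcript, which was the case for 27 peaks (24.8%, 95% Wilson interval 17.6 to 33.6%). Another 38 lay in exons, 41 in introns and 3 after the gene. DLEU2, a long host gene of microRNAs, held 35 of the 41 intronic peaks. For comparison, 16.7% of all peak and gene pairs of lncRNA genes and 13.7% of those of protein-coding genes were at an annotated end. At least 1 such peak was found in 9 of the 10 genes. Of all genes with a peak, 44.2% of lncRNA genes and 84.2% of protein-coding genes had one. The 10 genes had from 1 (NORAD) to 62 (GAS5) basic transcripts. A gene with more annotated ends or more peaks has more chances of a match, and these comparisons do not account for that.

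**Figure D1:**
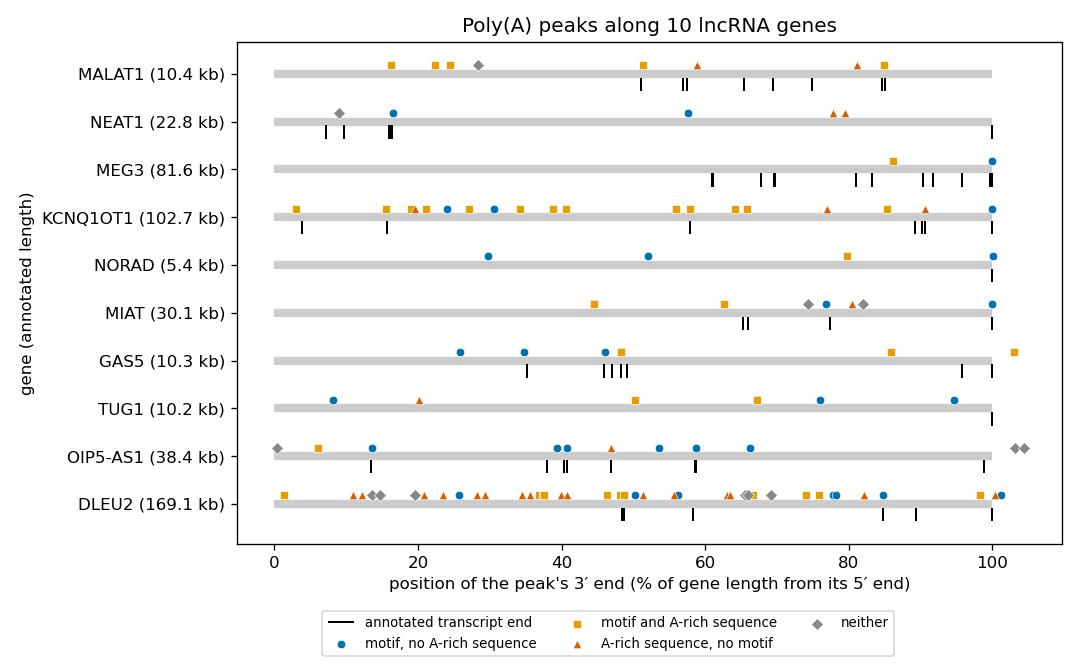
Position of the 3′ end of each of the 109 peaks, in percent of the gene's annotated length from its 5′ end, for the 10 genes (1 row each). Marker shape and colour give the sequence class and black ticks the annotated transcript ends; the last peak of MEG3, NORAD and MIAT lies at the gene end and is motif-only (labelled motif, no A-rich sequence), whereas MALAT1 has no such marker.

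To separate the kinds of ends, the 100 bp before the 3′ end of each peak were searched for 12 PAS motifs, those of the study, and the 50 bp after it for A-rich sequence, defined as a run of 6 A or as 7 A within 10 bases. AATAAA took precedence over ATTAAA, and these over the other 10. Motifs may overlap each other. The gene's strand was searched, and the mirror-image windows of the opposite strand served as a background. A motif preceded 70 of 109 peaks (64.2%, interval 54.9 to 72.6%), and 45.9% on the opposite strand. AATAAA preceded 36 peaks and ATTAAA 9. Of the rarer motifs, AAGAAA was kept for 5 peaks. The motifs ACTAAA and AGTAAA were each kept for 3 peaks, as were GATAAA and TATAAA. The motif AATACA was kept for 2 peaks, AATATA for 2 and AATGAA for 2. AATAGA was kept for 1 peak and CATAAA for 1. Over all lncRNA genes a motif preceded 54.2% of peaks and over protein-coding genes 58.0%. The interval of the 10 genes lay just above the first of these shares and included the second. Peaks of 1 gene are not independent, so this is not read as a trait of the 10 genes. A-rich sequence followed 65 peaks (59.6%, interval 50.2 to 68.4%), against 23.9% on the opposite strand, 43.3% over all lncRNA genes and 63.9% over protein-coding genes.

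By both features together, 31 peaks were motif-only, with a PAS motif but without A-rich sequence after them (28.4%, interval 20.8 to 37.5%), 39 had both, 26 had A-rich sequence alone and 13 had neither. Of the 13 with neither, 9 were followed by A-rich sequence on the opposite strand. This held for 8 of the 31 motif-only peaks, 6 of the 39 with both and 3 of the 26. On the opposite strand 39 of the 109 were motif-only, more than on the strand of the gene, with 3 against 0 in MALAT1 and 7 against 3 in KCNQ1OT1. The class by itself therefore does not mark a transcript end in these genes. The first class made up 31.4% of peaks over all lncRNA genes and 27.4% over protein-coding genes. Its members had a median pileup of 18, against 15 for peaks with both features, 13.5 for A-rich sequence alone and 15 for neither. These medians lay within the range of each class, which for the first class ran from 6 to 52. Among the 31 peaks, 26 had AATAAA or ATTAAA, against 22 such peaks on the opposite strand. The 26 on the strand of the gene began a median of 27.5 bp before the peak's end (range 6 to 81 bp).

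The classes were divided unevenly along the genes. Within 100 bp of an annotated end lay 19 peaks, of which 17 had a motif and 7 had A-rich sequence, and 12 (63.2%, interval 41.0 to 80.9%) were motif-only. Of the 90 other peaks, 53 had a motif and 58 had A-rich sequence, and 19 (21.1%, interval 14.0 to 30.6%) were motif-only. On the opposite strand, 8 of the 19 and 31 of the 90 were motif-only, and 3 of the 19 were so with AATAAA or ATTAAA, against 12 of the 19 on the strand of the gene. The 2 intervals do not overlap, but peaks of 1 gene share their transcript and are not independent. A motif-only peak within 100 bp of an annotated end was found in 8 of the 10 genes, the exceptions being MALAT1 and TUG1. Of genes with a peak, 20.6% of lncRNA genes and 64.7% of protein-coding genes had one. The number of ends and peaks per gene was not accounted for here either.

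The peak with the highest −log10 q was motif-only in 8 of the 10 genes, and lay at an annotated end in 7. The exceptions for the sequence class were MALAT1 and KCNQ1OT1. When the ends of all annotated transcripts were counted, and not the basic ones alone, this peak was within 20 bp of an end in 9 of the 10, KCNQ1OT1 being 824 bp away from one. The genes had from 1 annotated transcript (NORAD) to 91 (GAS5), and more transcripts give more ends to match. How often the strongest peak of other genes does so was not computed. These counts are therefore not read as particular to the 10 genes.

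In MALAT1 (chr11:65497640-65508073, plus strand), a peak ended 15 bp before the processed end. This peak (chr11:65506002-65506101) had no PAS motif in the 100 bp before its end, and its end lay 3 bp past the first base of the genomic run of 13 A that precedes the cut. Its pileup, the number of extended reads over the summit, was 28 against a local background of 5.90, a fold enrichment of 4.20 with a −log10 q of 8.27. The end of the peak thus sat at the start of the A tract that is shown in capitals above, and not at the cut itself. Another peak lay past the cut, and its sequence is printed here because it carries AATAAA.
MALAT1 peak past the processed end, chr11:65506431-65506530, plus strand: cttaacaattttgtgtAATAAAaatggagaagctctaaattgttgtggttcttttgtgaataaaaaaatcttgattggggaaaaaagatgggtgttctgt
This second peak (chr11:65506391-65506490) ended 374 bp after the processed end and 21 bp after an annotated transcript end, and an AATAAA, in capitals, began 44 bp before it. Another copy of this motif, in lower case, lies across its 3′ end, and this end is 26 bp before another annotated transcript end. Its pileup was 28, its fold enrichment 4.35 and its −log10 q 8.65. The peaks before and after the cut thus had the same pileup in the pooled list.

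The other 6 MALAT1 peaks ended before the cut and had higher pileups, from 38 to 96, over higher backgrounds. In 4 of the 6 the fold enrichment, from 2.91 to 4.04, was below that of the peaks on either side of the cut. The highest, chr11:65499495-65499966, had a pileup of 96, a fold enrichment of 8.23 and a −log10 q of 51.4, was 472 bp wide and had TATAAA 14 bp before its end. The next, chr11:65499053-65499338, had a pileup of 69 and a −log10 q of 29.0. They ended 22.3 and 16.3% of the way along the gene, counted from its 5′ end, and both were followed by A-rich sequence. The highest ended 16 bp before the end of an annotated transcript that is not in the basic set. A further peak, chr11:65502817-65502998, ended 34 bp past a basic transcript end, with AATAAA 17 bp before its 3′ end, a pileup of 52 and a −log10 q of 13.8. In all, 7 of the 8 MALAT1 peaks were followed by A-rich sequence, and the other had neither feature. The local background in MALAT1 ranged from 5.67 to 12.4, and its median of 11.1 exceeded that of 99.98% of all peaks on the chromosomes. This background is the peak caller's estimate of the reads expected at that position. The fold enrichments stayed between 2.91 and 8.23, against a median of 6.29 for all peaks. All 8 peaks overlapped TALAM1, an antisense gene, and since the list gives no strand, reads of this pair of genes cannot be told apart.

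In NEAT1 (chr11:65422774-65445540, plus strand), no peak was detected within 1 kb of the processed end of the long isoform. The nearest one, chr11:65440746-65440851, ended 4689 bp before it, at the run of 22 A that is printed above, with a pileup of 17, a fold enrichment of 8.74 and a −log10 q of 12.7. A peak close to it, chr11:65440370-65440483, met a run of 10 A and reached a −log10 q of 20.3 and the highest fold enrichment of the gene, 11.8. Neither had a PAS motif. Both lie in the stretch that belongs to the long isoform alone.

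The end of short NEAT1 was the strongest peak of the gene by −log10 q. It spanned chr11:65426045-65426532, ended 19 bp after the annotated end, had AATAAA 30 bp before its 3′ end and no A-rich sequence after it. Its pileup of 52 and −log10 q of 31.8 were the highest in NEAT1, with a fold enrichment of 9.28. The remaining peaks were chr11:65424718-65424819, with a −log10 q of 8.67 and neither feature, and chr11:65435798-65435897, with AATAAA 18 bp before its end and a −log10 q of 5.50. NEAT1 has no gene on the opposite strand under any of its 5 peaks. Of the proteins that build paraspeckles around NEAT1, 12 of 12 genes had a peak at an annotated end, as had 9 of 11 genes for proteins of RNase P and tRNase Z, the enzymes that cut these RNAs. Both counts are near the 84.2% of all protein-coding genes with a peak.

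**Figure D2:**
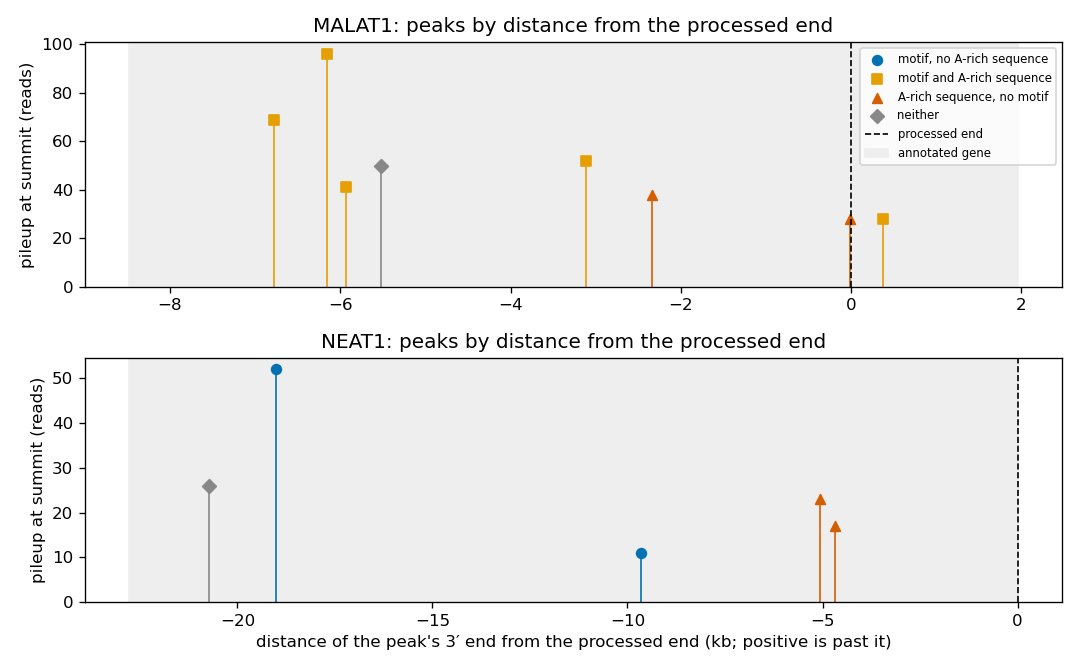
Pileup at the summit (reads) of the 8 MALAT1 peaks and the 5 NEAT1 peaks against the distance of the peak's 3′ end from the processed end (kb, dashed line at 0); the shaded range is the annotated gene. In MALAT1 a peak of pileup 28 lies at the line and another of 28 just past it, while in NEAT1 the nearest peak is 4689 bp before the line.

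The composition around the ends differed in where the A bases lay. In bins of 5 bases, A made up 80, 100, 80 and 80% of the 20 bases before the MALAT1 cut, and 20% of the 5 bases after it. Before the long NEAT1 cut, the last 10 bases were 80% A. Around the strongest motif-only peaks of the other genes and at short NEAT1 (9 ends), A made up 42.2% of the last 5 bases and 20% of the next 5. Around the 27 peaks followed by a run of at least 8 A, it made up 54.1% of the last 5 bases and 86.7% of the next 5. The last group was chosen by that run and the third by its absence, so these values describe the choice.

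**Figure D3:**
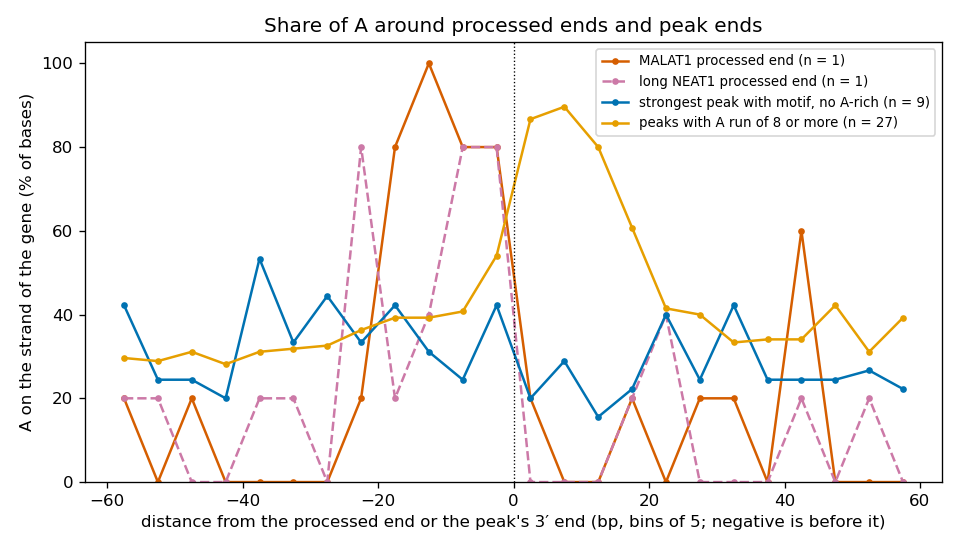
Share of A (% of bases on the strand of the gene, bins of 5 bp) against distance from the processed ends of MALAT1 and long NEAT1, from the 3′ ends of 9 motif-only peaks, and from those of 27 peaks followed by at least 8 A. The A tract of MALAT1 reaches 100% before the cut, whereas that of the 27 peaks reaches 89.6% after the peak's end.

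Among the peaks with a PAS motif, several lay at the annotated base. MEG3 is an imprinted gene whose RNA is expressed from the maternal allele. Its peak at chr14:100860917-100861025 ended 1 bp before an annotated end, in a group of 12 transcripts whose ends lie up to 24 bp apart, with AATAAA 28 bp before its 3′ end. The pileup was 14 over a background of 0.19, the lowest of the list, which gave a fold enrichment of 12.6 and a −log10 q of 19.5. The other MEG3 peak, chr14:100849491-100849778, was weaker, with a −log10 q of 5.35. Thus MEG3, which is 81.6 kb long and has 13 groups of annotated ends, showed a peak within 100 bp of 1 of them. Both MEG3 peaks also overlapped MIR493HG on the same strand and ENSG00000258663 on the opposite strand.

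NORAD sequesters PUMILIO proteins and is transcribed as a single exon. Its end was marked by the peak chr20:36045612-36045806, 6 bp past the annotated end, with AATAAA 36 bp before the 3′ end, a pileup of 41, a fold enrichment of 9.07 and a −log10 q of 25.3. The other 3 peaks of NORAD were inside the exon with pileups from 25 to 30. In MIAT, the peak chr22:26676272-26676476 ended 1 bp after the annotated end, with ATTAAA 23 bp before it and a −log10 q of 18.1. The next strongest of MIAT, chr22:26670500-26670609, instead met the run of 24 A printed above and had a −log10 q of 15.3. Its pileup of 25 was 1 read above that of the end peak. The end peak also overlapped MIATNB on the same strand, and 4 other MIAT peaks overlapped ENSG00000206028 on the opposite strand.

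GAS5 hosts small nucleolar RNAs in its introns. Its peak chr1:173863901-173864007 ended at the exact base of an annotated end, in a group of 48 transcripts joined in the same way, with AATAAA 19 bp before it, a pileup of 30 and a −log10 q of 8.64. This peak was also followed by A-rich sequence, a run of 6 A, and so was not motif-only. A peak somewhat upstream, chr1:173864134-173864249, was the strongest of the gene, with AATAAA 33 bp before its end, a pileup of 43 and a −log10 q of 18.3, and it ended 10 bp past the end of a group of 9 transcripts. The peak at the exact base also overlapped GAS5-AS1 on the opposite strand. All 6 GAS5 peaks had a motif. Backgrounds were high in this gene, from 4.53 to 6.49, and no fold enrichment exceeded 5.97.

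TUG1 had no peak at the end of its basic transcript. Its last peak, chr22:30978743-30978849, ended 546 bp before that end, and was the strongest of the 6, with AATAAA 27 bp before its 3′ end, no A-rich sequence after it, a pileup of 18 and a −log10 q of 12.9. It ended 1 bp past the end of another annotated transcript that is not in the basic set. This peak was 1 of 2 TUG1 peaks that overlapped ENSG00000269987 on the opposite strand. Peaks before runs of 18 and 15 A, at chr22:30975956-30976062 and chr22:30974247-30974348, had a −log10 q of 9.38 and 6.49.

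OIP5-AS1, known as cyrano, had the highest fold enrichment among the 109 peaks. This peak reached 18.1-fold, with a pileup of 44 over a background of 1.48 and a −log10 q of 44.3. AATAAA began 45 bp before its 3′ end, which lay 38 bp past the end of a basic transcript. Further peaks at chr15:41298885-41299095 and chr15:41299320-41299632 had AATAAA 38 and 36 bp before their ends and a −log10 q of 32.0 and 16.2. Of the 11 peaks, 6 were motif-only. In contrast, chr15:41301875-41301974 ended 15 bp past an annotated end, had no motif, and met a run of 29 A. The last 2 peaks lay after the gene, 1118 and 1615 bp past it, with neither feature on its strand, over OIP5 on the opposite strand and NUSAP1 on the same strand. On the OIP5 strand both were followed by A-rich sequence, with runs of 8 and 21 A. All 11 peaks also lay in ENSG00000285920, a gene annotated on the same strand, so they cannot be assigned to OIP5-AS1 alone.

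KCNQ1OT1 is transcribed antisense to KCNQ1 from an imprinted promoter and silences neighbouring genes. Of its 19 peaks, 16 were followed by A-rich sequence. Its 3 peaks at inner annotated ends, chr11:2606918-2607017, chr11:2640582-2640796 and chr11:2683974-2684079, ended 13, 19 and 13 bp before the annotated base and met runs of 28, 16 and 14 A. None of the 3 had AATAAA or ATTAAA. The end of the gene itself differed: chr11:2597316-2597416 ended 2 bp past an annotated transcript end, with AATAAA 20 bp before its 3′ end and no A-rich sequence. Its pileup was 6 and its −log10 q 6.22. The strongest peaks were chr11:2696890-2697085, with a −log10 q of 18.3, and chr11:2675326-2675493, with ATTAAA 21 bp before its end and a −log10 q of 17.1. All 19 peaks overlapped KCNQ1 on the opposite strand. A-rich sequence followed 14 of the 19 on the KCNQ1OT1 strand alone, 2 on both strands and 0 on the KCNQ1 strand alone.

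DLEU2 hosts microRNAs of the MIR15A and MIR16-1 cluster in an intron and lies in a region that is deleted in chronic lymphocytic leukaemia. Its strongest peak, chr13:50043907-50044112, ended 18 bp past an annotated end, with ATTAAA 39 bp before its 3′ end, a pileup of 34 and a −log10 q of 20.5. The peak chr13:50065494-50065607, with a pileup of 24 and a −log10 q of 16.9, lay in an intron at a run of 39 A, the longest met by any of the 109 peaks. The most distal annotated end had no peak within 100 bp. A weak peak past it, chr13:49956033-49956244, ended 637 bp after this end, with a −log10 q of 1.71. It had no motif and was followed by A-rich sequence. Within the long gene, 24 of the 41 peaks overlapped no gene on the opposite strand. Of these 24, 14 were followed by A-rich sequence on the DLEU2 strand alone and 3 on the other strand alone. Of the 8 peaks over TRIM13, the numbers were 5 and 3, and of the 9 over DLEU1, 4 and 4. AATAAA or ATTAAA preceded 10 of the 24 on the DLEU2 strand alone, but 0 of the 8 over TRIM13 and 1 of the 9 over DLEU1. The strand of the peaks over these genes is not given in the list.

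**Figure D4:**
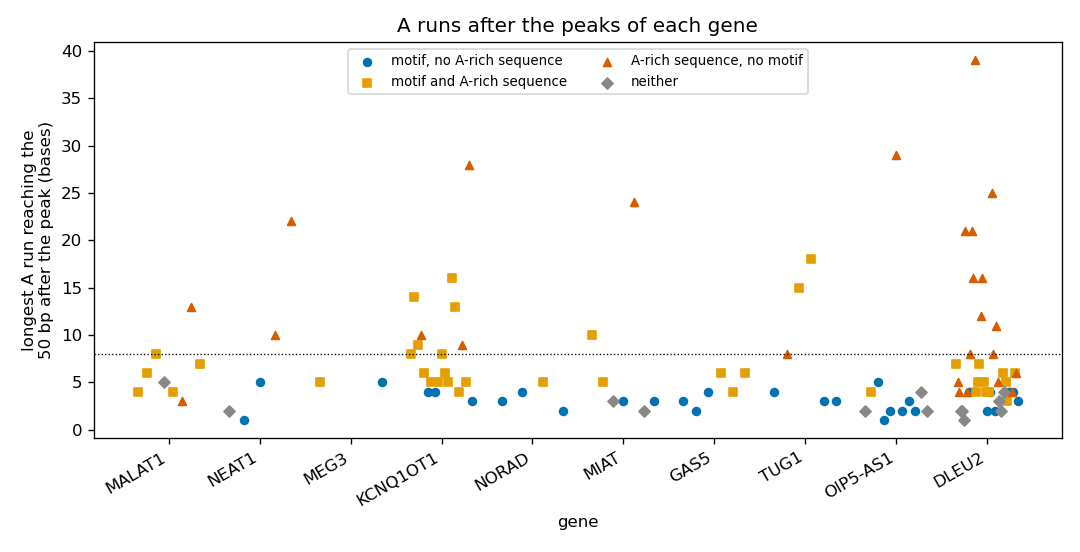
Longest run of A (bases) that reaches the 50 bp after the 3′ end of each peak, on the strand of the gene, by gene and sequence class; the dotted line marks 8 A. The longest runs are 39 A in DLEU2, 29 in OIP5-AS1 and 28 in KCNQ1OT1, and 29 peaks are at or above the line.

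Runs of at least 8 A reached the 50 bp after 29 of the 109 peaks, 2 more than the 27 above, because bases of the run up to the peak's end were counted here. In 25 of the 29, the run began between 10 bases before and 10 bases after the peak's end, and in 14 it began at the peak's last base or before it. No PAS motif preceded 19 of the 29, and 4 had AATAAA or ATTAAA. Runs of at least 16 A were met by 12 peaks, 6 of them in DLEU2, and 10 of the 12 had no motif. The study removed peaks that had no motif and lay before 25 A with at most 3 mismatches, which in these genes applied to 4 peaks (3.67%, interval 1.44 to 9.06%), 2 in DLEU2 and 1 each in KCNQ1OT1 and OIP5-AS1. The share was 3.25% over all lncRNA genes and 4.94% over protein-coding genes. The peak at the A tract of MALAT1 was not among them.

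The question was also put from the sequence. The 10 genes hold 201 runs of at least 8 A on the strand of the gene, and a peak ended at 31 of them (15.4%, interval 11.1 to 21.1%), counting a run when it reached the 50 bp after the peak. Of 196 runs of at least 8 T, read as A runs of the opposite strand, 11 had such a peak (5.61%, interval 3.16 to 9.77%), and 10 of the 11 were in DLEU2. With runs of at least 12 the counts were 17 of 72 and 7 of 94, and with runs of at least 16 they were 12 of 38 and 6 of 46. Most A runs in these genes thus had no peak. MEG3 had none at its 19 runs, for which the upper limit of the interval was 16.8%. In contrast, both runs of MALAT1, 3 of 4 in TUG1, 10 of 36 in KCNQ1OT1 and 11 of 99 in DLEU2 had one. In OIP5-AS1 it was 1 of 23 and in GAS5 0 of 5, for which the upper limit of the interval was 43.4%. The T runs of DLEU2 had a peak in 10 of 102, close to its A runs, whereas those of the other 9 genes had 1 in all.

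The annotation was examined in the same way. The basic transcripts of the 10 genes have 63 groups of ends, when ends up to 24 bp apart are joined, and 25 had a peak within 100 bp. Of the 26 groups with AATAAA or ATTAAA and no run of 8 A, 14 had one. Of the 7 groups that lie at such a run, 5 had one, all in KCNQ1OT1 and OIP5-AS1, and of the 30 groups with neither, 6. Annotated ends of these genes therefore included both kinds of sequence.

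**Figure D5:**
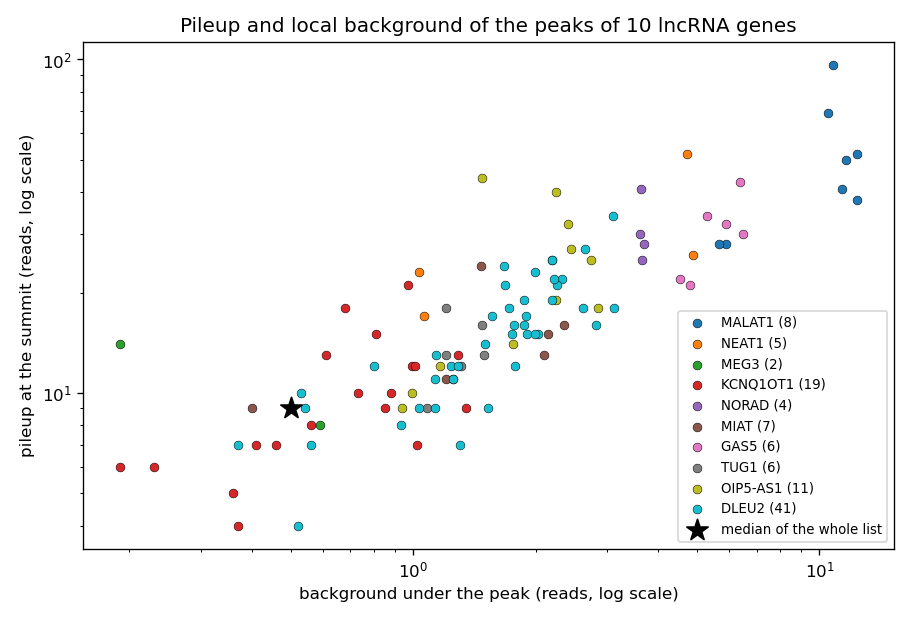
Pileup at the summit against local background (reads, both axes logarithmic) for the 109 peaks, coloured by gene, with the median of all peaks on the chromosomes (9 over 0.5) as a star. The 8 MALAT1 peaks lie at backgrounds of 5.67 to 12.4, and the OIP5-AS1 end peak reaches 44 over 1.48.

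The scale of the pileup limits these comparisons. The highest pileup in the list was 200, and on the chromosomes 187, and how duplicate reads were handled is not stated. With an extension of 100 bp, 200 is the most that 1 read kept per position and strand allows. Whether reads were filtered in this way was not tested. The fold enrichment and the −log10 q are computed from the pileup. None of these values is therefore a measure of how abundant an RNA was or how often an end was used. A peak called strongest is only the one with the highest −log10 q of its gene. Of the 109 peaks, 94 reached a −log10 q of 5, the threshold that the study set when it sought sample-specific peaks, and 57 overlapped a gene on the opposite strand. As a check of the cells, 7 of 7 genes that mark noradrenergic neuroblastoma, among them GATA3 and TH, had a peak at an annotated end (84.2% of all protein-coding genes with a peak had one), and of 5 markers of other cell types 1 had (COL1A1, a collagen gene), with no peak in PTPRC, ALB, KRT5 or PECAM1. Among 24 other named lncRNA genes, such as SNHG1 and CRNDE, 19 had a peak at an annotated end and 14 had a motif-only peak within 100 bp of it, while 3 had no peak. Over all lncRNA genes with a peak these shares were 44.2 and 20.6%, again without regard to the number of ends or peaks per gene.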

How the data were processed

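Poly(A) 3′-sequencing libraries were made with the QuantSeq 3′ REV kit from RNA treated with DNase, with ERCC spike-ins in the Kelly samples per the study's methods. The authors trimmed reads with BBDuk, mapped them with STAR 2.5.1b to GRCh38, merged all samples and called peaks with MACS2 2.1.1, with an extension size of 100 bp. Per the labels, SAMtools and deepTools 2.5.4 were also used. The deposited list gives a score (the −log10 q on a larger scale), a fold enrichment, which is a ratio to local background, and −log10 p and −log10 q. Genome size, duplicate handling and q threshold are not given in the sources used here. Depth per library is unknown, and intervals cover counting error only. A planned edgeR test between groups was not run, because the deposited list holds no counts per library.

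Whole pileups were recovered from the fold and −log10 p (MACS2's formulas, a tolerance of 0.001 on the −log10 p; 100% of peaks), after the step was tested on simulated data. Genes and basic transcript ends are from GENCODE release 44, coordinates count from 1, and a peak's 3′ end was read on the strand of the gene. Shares have 95% Wilson intervals. Python 3.11.15, pandas 2.3.3, SciPy 1.17.1 and pyfaidx 0.9.0.4 were used. For each gene the text names the peak with the highest −log10 q, the highest pileup, the one nearest an annotated end, and those with the longest A runs or at processed ends; other single peaks in the text were named after their values were seen. The opposite-strand counts by distance were added after seeing the data. The genes and lists were chosen with earlier results of these data known. Alternatives changed the range after the gene, the −log10 q, the motif set and window, the A-rich rule, the end definition and the peaks used. A marker gene and a sequence are not reported here.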

Additional observations from a re-analysis of the deposited data

How the results depend on the processing

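No paired analysis was possible because the list pools all libraries and holds no value per replicate. For the same reason no replicate could be left out. Of 49 alternatives, 37 left a value within its 95% interval, or a count within 1.5 times. The 109 peaks became 52 when peaks over a gene on the opposite strand were left out, and 68 without DLEU2. The share at an annotated end (24.8%) became 33.8% without DLEU2, 17.4% when the 3′ end had to lie within 100 bp of an end, and 40.4% with the ends of all transcripts. The share with a PAS motif (64.2%) became 75.0% without DLEU2 and 41.3% with AATAAA and ATTAAA alone. The share before A-rich sequence (59.6%) became 3.67% when 25 A with at most 3 mismatches were required and 45.9% with a window of 20 bp. The share of motif-only peaks (28.4%) became 42.3% without peaks over an opposite gene, 64.2% with the 25-A rule and 38.5% with the window of 20 bp. These shifts follow from which peaks or letters each setting counts. Searching 5 kb after the genes added 0 peaks. Depth per library is unknown, so the lack of a peak at the long NEAT1 cut or at the TUG1 end says that none was detectable in the pooled list.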
